A study of Mus musculus with 12 samples.

Results

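The genes examined here carry out antigen presentation on MHC class II: Ciita, Cd74, H2-Aa, H2-Ab1, H2-Eb1, H2-DMa, H2-DMb1, H2-Oa, H2-Ob and Ifi30. They were chosen by name, as 10 of the 31332 genes in the count table, and all 10 were among the 17268 genes with enough counts to be tested. RNA had been sequenced from cortical (cTEC) and medullary (mTEC) thymic epithelial cells, sorted from thymuses of C57BL6/J mice 2 months old. Every group carried floxed alleles of both liver X receptors, LXR alpha and LXR beta, which are nuclear receptors activated by oxysterols. The control groups carried these alleles alone (labelled LXRalpha flox and LXR beta flox), and the Cre groups carried FoxN1-Cre in addition. The promoter of FoxN1, a transcription factor of thymic epithelium, drives the Cre, so recombination is directed to epithelium of both compartments. Each group had 3 libraries: libraries 1 to 3 were control mTEC, 4 to 6 mTEC with Cre, 7 to 9 control cTEC, and 10 to 12 cTEC with Cre. The labels do not say whether libraries came from separate or pooled animals, so p-values measure only the spread between libraries.

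MHC class II molecules are pairs of an alpha and a beta chain that display peptides from the endosomal pathway to CD4 T cells. They are assembled with the invariant chain (Cd74), loaded in endosomes with the help of the DM heterodimer, which the DO heterodimer inhibits, and transcribed under the coactivator Ciita, which acts through proteins bound at the X and Y boxes of class II promoters. In the thymus, class II on cTEC selects CD4 T cells positively, and class II on mTEC takes part in negative selection and in forming regulatory T cells.

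Nr1h2, which encodes LXR beta, was at 168, 157 and 191 CPM in control cTEC, against 119, 102 and 123 CPM in Cre cTEC. CPM is the count scaled to the library's total, here with TMM factors, and a log2 ratio is the base 2 logarithm of the fold change. Nr1h2 fell by 0.58 on the log2 scale (SE 0.13, adjusted p = 0.00566, edgeR's quasi-likelihood test). In mTEC the control libraries held 109, 125 and 131 CPM, against 95.7, 70.8 and 70.2 CPM with Cre (log2 ratio -0.63, SE 0.13, adjusted p = 0.0158, and up to 0.131 without library 2, 3 or 5). Nr1h3, which encodes LXR alpha, was at 5.83 to 10.7 CPM in every library and did not pass in either cell type (adjusted p = 0.869 and 0.67). Counts over a whole gene include exons outside a floxed segment, so the levels are no measure of deletion. Foxn1 was at 231 to 353 CPM in control libraries and at 33.9 to 164 CPM in Cre libraries, without overlap. Total counts lay between 4804697 and 11159013 per library. Library 11 had the fewest counts and a TMM factor of 1.08, against 0.875 and 0.946 for the other Cre cTEC libraries, 10 and 12.

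The sort labels were checked against marker genes. The 8 cTEC markers, among them Psmb11 and Prss16, summed to 8741 to 20660.2 CPM in cTEC and to 1829 to 2629.6 CPM in mTEC. The 9 mTEC markers summed to 1274 to 2617 CPM in cTEC and to 5843 to 7223 CPM in mTEC. Krt5 and Krt14 made up most of these sums, with means of 3508 and 1588 CPM in control mTEC. Aire, the regulator of tissue antigens in mTEC, was at 2.90 to 10.8 CPM in cTEC and at 487 to 932 CPM in mTEC. Ccl21a, a chemokine of other mTEC, was at 0 in 10 of 12 libraries. How multi-mapping reads were counted is not given, so this is no measure of whether such mTEC were present.

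Class II is also made by dendritic cells, macrophages and B cells, so their markers are given here. The 20 dendritic cell and macrophage markers summed to 174 to 210.3 CPM in control cTEC, 152 to 184 CPM in Cre cTEC, 544 to 660.2 CPM in control mTEC and 433 to 629 CPM in Cre mTEC. Of the 19 tested, 10 were higher and 2 lower in mTEC than in cTEC of controls, against 29.3% and 30% of all genes. Lyz2 led the mTEC sums (169 to 290 CPM), while Ptprc, the pan-leukocyte gene CD45, was at 12.4 to 17.6 CPM in mTEC and at 17.1 to 34.1 CPM in cTEC, and Itgax, which marks dendritic cells, was at 0.303 to 1.85 CPM throughout. The 12 B cell markers summed to 57.2 to 178 CPM in control cTEC, 49.1 to 78.6 CPM in Cre cTEC, 227 to 333 CPM in control mTEC and 173 to 659 CPM in Cre mTEC. The 14 thymocyte markers summed to 223 to 336 CPM in cTEC and to 170.1 to 227 CPM in mTEC. No gene of these 3 lists was at 0 in every library, and Clec9a and Batf3 were each at 0 in 1 library. Between genotypes, 9.01% of all genes passed in cTEC and 4.01% in the difference of genotype effects. Of the 19 dendritic cell and macrophage markers tested, 1 passed, in both of these. This was Zbtb46, a transcription factor of dendritic cells, at 12.1 to 14.7 CPM in control cTEC, 17.2 to 22.6 CPM in Cre cTEC, 71.1 to 77.8 CPM in control mTEC and 58.3 to 66.4 CPM in Cre mTEC. Its log2 ratio of Cre over control in cTEC was 0.60 (SE 0.14, adjusted p = 0.00757, edgeR), and the difference of effects was 0.87 (SE 0.18, adjusted p = 0.00852). The part of such cells in the results was not tested, and in sorted bulk samples fewer cells of a type and less RNA per cell cannot be told apart.

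RefSeq promoters on GRCm38.p6 (250 bases before to 50 after a start) were at hand for 7 of the 10 genes, with 2 starts for H2-DMa. They were searched on both strands for CCAAT, the core of the Y box, for a core of the X box, whose matches here were AGTGACAGATG, AGTAACTGATG and AGCAACTGATG, and for the DR4 direct repeat of AGGTCA, which LXR binds with RXR. CCAAT was in 6 of the 8 promoters, against 37.4% of all 32851 promoters. A match to the X core was in 3 of the 8, against 0.968% of all. The direct repeat was in 0 of the 8 and in 0.0152% of all promoters (5 of them), and no match says only that these letters are not in the window. Shown are the 5 promoters with CCAAT in reverse, ATTGG, between 61 and 43 bases upstream, and not those of H2-DMa and Ifi30. The stretches run from 150 to 21 bases before the start. Each reads 5′ to 3′ on the gene's own strand, with matches to CCAAT or to the X core in capitals. They lie at chr17:34287844-34287973 (H2-Aa, minus strand), chr17:34305717-34305846 (H2-Eb1, plus), chr17:34153041-34153170 (H2-DMb1, plus), chr17:34092229-34092358 (H2-Oa, plus) and chr17:34238755-34238884 (H2-Ob, plus).
H2-Aa: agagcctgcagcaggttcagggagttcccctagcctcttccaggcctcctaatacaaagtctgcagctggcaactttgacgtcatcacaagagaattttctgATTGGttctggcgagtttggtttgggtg
H2-Eb1: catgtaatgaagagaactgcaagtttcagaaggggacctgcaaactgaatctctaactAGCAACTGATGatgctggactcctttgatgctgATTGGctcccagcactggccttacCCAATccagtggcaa
H2-DMb1: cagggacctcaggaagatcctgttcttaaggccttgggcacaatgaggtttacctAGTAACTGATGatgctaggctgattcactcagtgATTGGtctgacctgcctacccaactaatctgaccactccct
H2-Oa: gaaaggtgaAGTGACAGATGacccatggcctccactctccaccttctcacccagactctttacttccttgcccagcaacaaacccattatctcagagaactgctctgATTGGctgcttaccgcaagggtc
H2-Ob: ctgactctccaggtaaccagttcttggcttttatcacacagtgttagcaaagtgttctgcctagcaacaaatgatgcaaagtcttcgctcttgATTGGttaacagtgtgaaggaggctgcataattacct

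H2-Eb1 and H2-DMb1 held both elements in a like arrangement, with the X core 33 and 34 bases before ATTGG. H2-Eb1 also held CCAAT forward, 35 bases upstream of the start. In H2-Oa the match to the X core, AGTGACAGATG, began 141 bases upstream. It lay 98 bases before ATTGG, farther than the 33 and 34 bases above, and whether it acts as an X box was not tested. An X box of H2-Oa nearer to ATTGG that differs from the searched letters would not be in capitals. In H2-Aa and H2-Ob these letters of the X core were not found in the window. The search allowed no mismatch, so an X box with other letters would not be found, and no match does not show its absence. Neither element was found for Ifi30 or for 1 of the 2 starts of H2-DMa, and the other start of H2-DMa had ATTGG 198 bases upstream. The Y core was thus in the window of H2-DMb1 and of both DO genes, and its part in their levels was not tested.

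Cd74 and the classical chains were among the most abundant transcripts of both cell types. Ranked by CPM among the genes tested, Cd74 was first or second in every library, H2-Ab1 was between 2 and 5, H2-Aa between 9 and 21 and H2-Eb1 between 17 and 52. Per kilobase of the longest transcript, control cTEC held 8035 ± 278 CPM per kb of Cd74 (SD, n = 3, as for all values with ± below), 5418 ± 337 of H2-Ab1, 2207 ± 220.2 of H2-Aa and 825 ± 72.6 of H2-Eb1. In the same libraries and on the same scale, H2-DMa was at 203 ± 16.2, H2-DMb1 at 164 ± 11.5, Ciita at 49.9 ± 2.03, H2-Oa at 43.1 ± 6.72, Ifi30 at 17.1 ± 3.39 and H2-Ob at 6.50 ± 1.25 CPM per kb. In control mTEC the order changed below the classical chains: H2-Oa (164 ± 10.0 CPM per kb) stood above Ifi30 (87.0 ± 4.69), H2-DMb1 (83.2 ± 7.32), H2-DMa (77.2 ± 4.40), Ciita (58.5 ± 4.10) and H2-Ob (23.7 ± 1.38). There H2-DMb1 overlapped both Ifi30 and H2-DMa in its libraries, while every library had more Ifi30 than H2-DMa per kilobase.

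**Figure D1:**
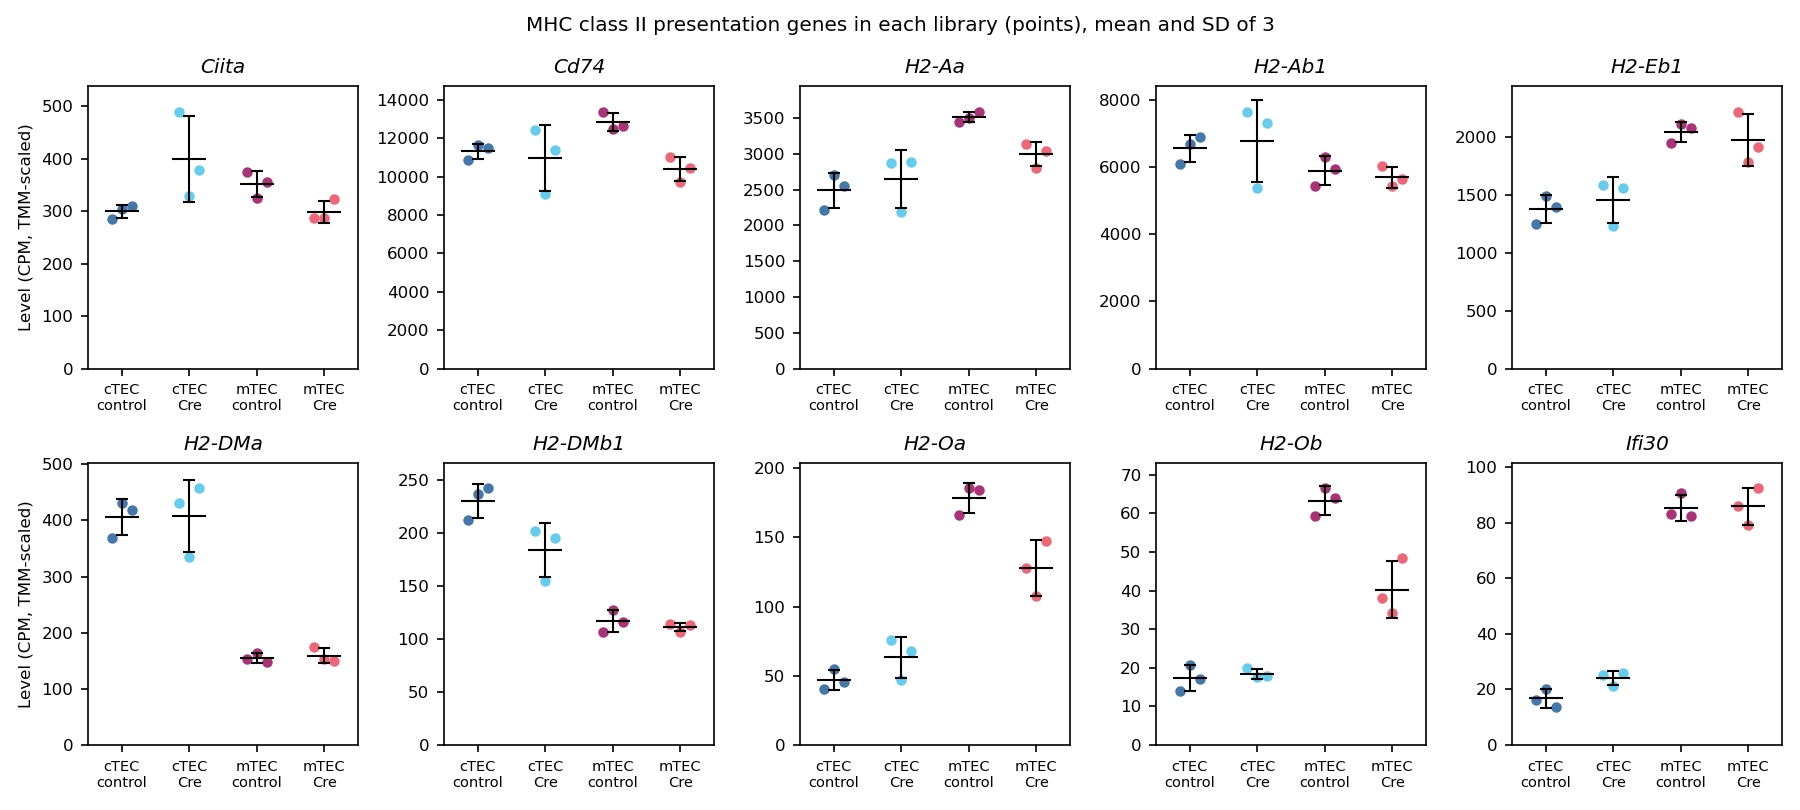
Level of each class II presentation gene in each library, as TMM-scaled CPM on axes that start at 0, for the 4 groups of 3 libraries. Points are libraries and bars show the mean and SD. H2-DMa and H2-DMb1 are high in cTEC, H2-Oa, H2-Ob and Ifi30 are high in mTEC, and library 11 is the lowest Cre cTEC point for each of the 10 genes.

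The first comparison asked which presentation genes differ between the 2 compartments in control mice. H2-Oa, H2-Ob and Ifi30 were 3.6 to 5.1 times higher in mTEC, H2-DMa and H2-DMb1 were lower, H2-Aa and H2-Eb1 were modestly higher, and Ciita, Cd74 and H2-Ab1 did not pass. In all, 5 of the 10 genes were higher and 2 lower, against 59.2% of all genes tested that passed in either direction (29.3% higher and 30% lower), so passing was common in this comparison. The median log2 ratio was 0.36 over the 10 genes and -0.05 over all genes.

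The chains of the DO heterodimer, the inhibitor of DM, were both higher in the medulla. H2-Oa (alpha chain) was at 40.6, 54.9 and 45.2 CPM in control cTEC, against 166, 185 and 184 CPM in control mTEC, and the log2 ratio was 1.92 (SE 0.16, adjusted p = 4.1e-09, edgeR). H2-Ob (beta chain) was at 14.1, 20.8 and 17.2 CPM in control cTEC, against 59.3, 66.6 and 64.1 CPM in control mTEC (log2 ratio 1.86, SE 0.15, adjusted p = 2.7e-09). For both, every mTEC library lay above every cTEC library. H2-Oa overlaps BC051537 on the opposite strand in GENCODE M21, and the library kit does not mark strand, so reads of such a pair cannot be told apart. The same limit holds for Ifi30 (with 6330537M06Rik), Ciita (with Dexi), H2-Eb1 (with Gm20513) and H2-DMa (with Brd2 and others).

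Ifi30 encodes GILT, a lysosomal thiol reductase that opens disulfide bonds of antigens. It was at 16.4, 20.3 and 13.7 CPM in control cTEC, against 83.0, 90.7 and 82.4 CPM in control mTEC, without overlap. The log2 ratio was 2.35 (SE 0.14, adjusted p = 2.4e-11, edgeR), the largest among the 10 genes. Of the 19 dendritic cell and macrophage markers tested, 10 were also higher in mTEC, among them Lyz2 and Zbtb46. Of the others, 2 were lower, Ptprc and Sirpa, and the rest did not pass. Over all genes 29.3% were higher and 30% lower. The part of such cells in the Ifi30 difference was not tested.

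The DM genes went the other way. H2-DMa was at 369, 431 and 418 CPM in control cTEC, against 153, 165 and 147 CPM in control mTEC, and the log2 ratio was -1.39 (SE 0.12, adjusted p = 1.3e-08, edgeR). H2-DMb1 was at 212, 236 and 242 CPM in control cTEC, against 107, 127 and 116 CPM in control mTEC (log2 ratio -0.98, SE 0.11, adjusted p = 5.1e-07). The groups did not overlap for either gene. H2-DMb2, a second beta chain gene, was higher in mTEC, at 302 ± 41.2 CPM in control cTEC and 390.4 ± 2.21 CPM in control mTEC (log2 ratio 0.37, SE 0.13, adjusted p = 0.0228, and up to 0.0605 without library 1, 2, 3 or 7). In GENCODE M21 transcripts, 27.2% of the 50-base windows of H2-DMb1 also occur in H2-DMb2, and how reads that match both were counted is not given in the sources used here. With both genes summed, the beta chain counts were 532 ± 56.2 CPM in control cTEC and 507 ± 8.13 CPM in control mTEC, and the log2 ratio of -0.07 did not pass (SE 0.13, adjusted p = 0.647). The lower level in mTEC thus holds for H2-DMa and for H2-DMb1 as counted, and not for the DM beta chains as a pair.

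The classical chains differed less. H2-Aa (I-A alpha) was at 2216, 2702 and 2550 CPM in control cTEC, against 3450, 3506 and 3590 CPM in control mTEC, and the log2 ratio was 0.50 (SE 0.14, adjusted p = 0.00477, edgeR). H2-Eb1 (I-E beta) was at 1247, 1487 and 1394 CPM in control cTEC, against 1946, 2110 and 2082 CPM in control mTEC (log2 ratio 0.57, SE 0.14, adjusted p = 0.00134). Neither overlapped. H2-Ab1 (I-A beta) was at 6108, 6698 and 6893 CPM in control cTEC, against 5443, 6303 and 5941 CPM in control mTEC, with overlap (log2 ratio -0.16, 95% interval -0.47 to 0.16, adjusted p = 0.381). The alpha and beta chains of I-A, which pair in one molecule, thus had different ratios in the cell types: H2-Aa over H2-Ab1 was 0.379 ± 0.0217 in control cTEC and 0.598 ± 0.0391 in control mTEC on the CPM scale. H2-Ea-ps, the I-E alpha gene, was at 0.853 CPM or less in control libraries, and C57BL6/J mice are known to lack I-E on the surface.

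Cd74, the invariant chain that occupies the groove before peptide loading, was at 10886, 11628 and 11475 CPM in control cTEC, against 13381, 12476 and 12642 CPM in control mTEC. The groups did not overlap, but the log2 ratio of 0.18 did not pass (95% interval -0.14 to 0.49, adjusted p = 0.321, edgeR). Ciita was at 286, 305 and 309 CPM in control cTEC, against 374, 325 and 356 CPM in control mTEC, likewise without overlap and without passing (log2 ratio 0.23, 95% interval -0.04 to 0.50, adjusted p = 0.135). Both passed with DESeq2 (log2 ratios 0.26 and 0.31, adjusted p = 0.0391 and 0.0424). Of the 10 genes, 9 had no overlap between control cTEC and control mTEC, 7 higher and 2 lower in mTEC, against 69.3% of all genes (33.8% higher and 35.5% lower).

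In Cre mice the same comparison gave 4 genes higher in mTEC (H2-Eb1, H2-Oa, H2-Ob and Ifi30) and 3 lower (Ciita, H2-DMa and H2-DMb1), against 49.6% of all genes passing (25.1% higher and 24.5% lower). H2-DMa stood at 408 ± 63.9 CPM in Cre cTEC and 159 ± 13.5 CPM in Cre mTEC (log2 ratio -1.36, SE 0.12, adjusted p = 2.6e-08, edgeR). For H2-DMb1 the log2 ratio was -0.73 (adjusted p = 2.9e-05), and for its sum with H2-DMb2 it was -0.26 (adjusted p = 0.0978). H2-Oa had a log2 ratio in Cre mice of 1.00 (SE 0.15, adjusted p = 2.1e-05) and H2-Ob of 1.12 (SE 0.15, adjusted p = 3.8e-06), values smaller than in controls. Ifi30 had one of 1.82 (SE 0.13, adjusted p = 7.2e-10) and H2-Eb1 of 0.44 (SE 0.13, adjusted p = 0.0112). Ciita was lower in mTEC here (log2 ratio -0.42, SE 0.13, adjusted p = 0.0106), and without library 10 the value was -0.25 (adjusted p = 0.0866). H2-Aa did not pass (log2 ratio 0.18, 95% interval -0.11 to 0.47), nor did Cd74 (-0.08, -0.39 to 0.24) or H2-Ab1 (-0.25, -0.57 to 0.06). Groups did not overlap for 7 of the 10, against 53% of all genes (27.3% higher and 25.6% lower).

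**Figure D2:**
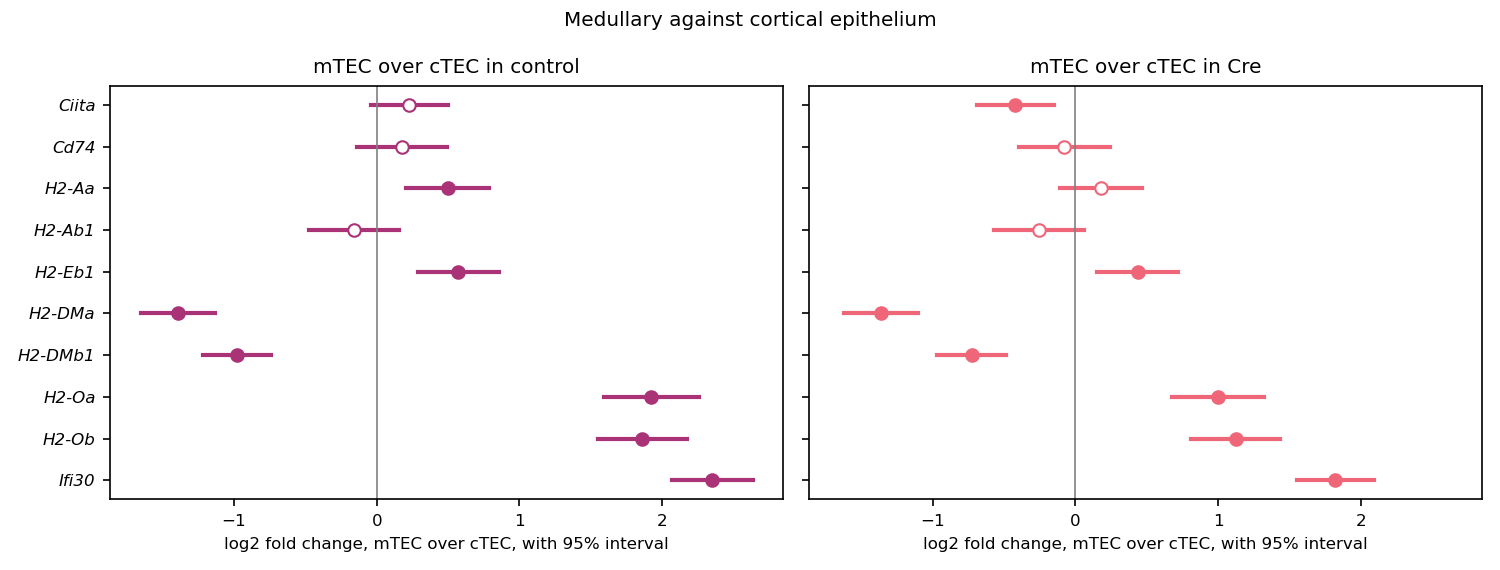
Log2 ratio of mTEC over cTEC for each gene, in control mice (left) and Cre mice (right), with 95% intervals from edgeR. Filled points have an adjusted p below 0.05. H2-DMa and H2-DMb1 lie to the left of 0 and H2-Oa, H2-Ob and Ifi30 to the right in both genotypes.

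Since DM loads peptides and DO inhibits it, the summed CPM of H2-DMa and H2-DMb1 was set against that of H2-Oa and H2-Ob within each library, as values without a test. The ratio was 10.6, 8.81 and 10.6 in control cTEC and 6.60, 7.64 and 7.64 in Cre cTEC. It was 1.15, 1.16 and 1.06 in control mTEC and 1.73, 1.83 and 1.34 in Cre mTEC. The 4 groups did not overlap: transcripts of DM stood far above those of DO in the cortex and close to them in the medulla, and the Cre groups lay between the control groups. With H2-DMb2 added to DM, the means were 14.8 ± 1.78 in control cTEC, 11.8 ± 0.713 in Cre cTEC, 2.74 ± 0.136 in control mTEC and 3.72 ± 0.463 in Cre mTEC, in the same order. Per kilobase the first ratio was 7.46 ± 0.764, 5.20 ± 0.497, 0.855 ± 0.0402 and 1.21 ± 0.186 in those groups. H2-DMa over H2-Oa, which leaves out the beta chains, was 8.73 ± 0.771, 6.55 ± 0.777, 0.869 ± 0.0615 and 1.26 ± 0.222. Cd74 over the sum of H2-Aa and H2-Ab1 was 1.31, 1.24 and 1.22 in control cTEC, 1.18, 1.20 and 1.12 in Cre cTEC, 1.505, 1.27 and 1.33 in control mTEC and 1.199, 1.18 and 1.21 in Cre mTEC. Every control library thus lay above every Cre library in this ratio, by a narrow margin in places.

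**Figure D3:**
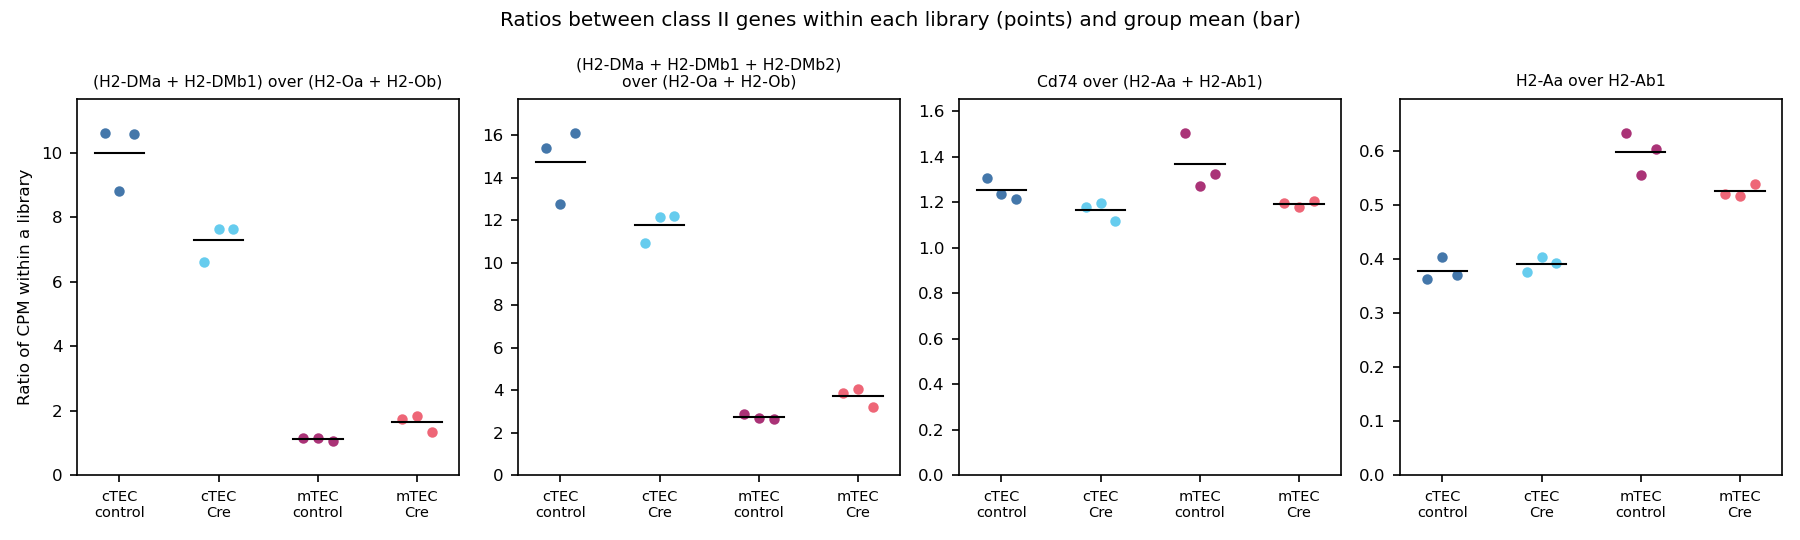
Ratios of CPM between class II genes within each library, for the 4 groups of 3 libraries. Points are libraries, horizontal bars are group means, and axes start at 0. DM over DO falls from about 10 in control cTEC to 1.12 in control mTEC, while Cd74 over the I-A chains lies between 1.12 and 1.505, with the Cre libraries below the controls.

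The second comparison asked what the Cre genotype changes in cTEC. Ifi30 rose and no other member passed, against 9.01% of all genes passing (5.62% higher and 3.38% lower). Ifi30 was at 16.4, 20.3 and 13.7 CPM in controls, against 25.3, 21.2 and 25.9 CPM in Cre cTEC, without overlap, and the log2 ratio was 0.54 (SE 0.14, adjusted p = 0.0213, edgeR). It no longer passed without library 7, 9, 10 or 12 (adjusted p = 0.0683, 0.153, 0.0757 and 0.0836), and without library 9 the value was 0.41. The counts behind it were 95 to 121 in controls and 110 to 227 in Cre cTEC.

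Ciita stood just outside the threshold. It was at 286, 305 and 309 CPM in control cTEC, against 489, 329 and 379 CPM in Cre cTEC, so that every Cre library lay above the controls (log2 ratio 0.41, SE 0.13, adjusted p = 0.0504, edgeR). It passed in 7 of 14 alternatives, among them DESeq2 (adjusted p = 0.00883) and the fit without library 11 (log2 ratio 0.52, adjusted p = 0.00412). The Cre libraries ranked 10, 12 and 11 for Ciita, and the summed cTEC markers had the same order, with 20660.2 CPM in library 10 and 9506 CPM in library 11. Of the 8 cTEC markers, 6 were higher in Cre cTEC and none was lower, against 5.62% and 3.38% of all genes. The mTEC markers summed to 1274 to 1480 CPM in Cre cTEC and 2312 to 2617 CPM in control cTEC, and of the 8 tested 2 were higher (Tnfrsf11a and Fezf2) and 2 lower (Krt14 and Krt5). The part of either in the Ciita values was not tested.

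H2-DMb1 was lower in each Cre cTEC library (201.5, 155 and 195 CPM) than in each control, with a log2 ratio of -0.32 that did not pass (SE 0.11, adjusted p = 0.088, and 0.021 with the filter of 5 CPM in 3 libraries, edgeR). Its sum with H2-DMb2 had a log2 ratio of 0.04 (adjusted p = 0.924). H2-Oa was at 75.8, 46.7 and 67.6 CPM in Cre cTEC, where library 11 fell within the control range (log2 ratio 0.44, SE 0.16, adjusted p = 0.101), and it passed without library 11 (0.60, adjusted p = 0.00796). In all, 3 of the 10 genes had no overlap in this comparison, 2 higher and 1 lower, against 20.2% of all genes (10.1% in each direction). The other 6 members gave intervals that bound a change rather than exclude one. For H2-Ab1 the log2 ratio was 0.05 (95% interval -0.27 to 0.36), for H2-Aa 0.09 (-0.20 to 0.38), for H2-Eb1 0.08 (-0.20 to 0.36) and for Cd74 -0.05 (-0.36 to 0.27). For H2-DMa it was 0.01 (-0.25 to 0.26) and for H2-Ob 0.09 (-0.24 to 0.43).

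In mTEC, H2-Ob fell and no other member passed, against 2.07% of all genes passing (0.585% higher and 1.49% lower). H2-Ob was at 59.3, 66.6 and 64.1 CPM in control mTEC, against 38.2, 34.2 and 48.5 CPM in Cre mTEC, without overlap, and the log2 ratio was -0.65 (SE 0.14, adjusted p = 0.0172, edgeR). The call was lost without library 1, 2, 3, 4 or 5, with adjusted p from 0.0545 to 0.144, and the value then lay between -0.70 and -0.55. H2-Oa, its partner chain, was at 166, 185 and 184 CPM in control mTEC, against 128, 108 and 148 CPM in Cre mTEC, also without overlap. Its log2 ratio of -0.48 did not pass (SE 0.15, adjusted p = 0.106), and it passed with DESeq2 (adjusted p = 0.0289) and with limma voom (adjusted p = 0.00262). Library 6 was the highest Cre mTEC library for both DO chains. It was also the highest for Aire, at 864 CPM against 487 and 564 CPM in libraries 4 and 5. For the summed mTEC markers it was the lowest, at 5843 CPM against 6768 and 6091 CPM in libraries 4 and 5. Krt5 and Krt14 made up most of these sums, and library 6 was the lowest of these libraries for both (2670 and 1242 CPM). It was the highest of them for Cd80, Tnfrsf11a, Cldn3 and Cldn4, and lay between libraries 4 and 5 for Fezf2. Between libraries 4 and 5 the order for Aire was opposite to that for the DO chains. The part of these markers in the DO values was not tested. The summed mTEC markers were lower in each Cre mTEC library (5843 to 6768 CPM) than in each control (6919 to 7223 CPM), and 0 of the 8 tested passed with edgeR (3 at an unadjusted p below 0.05), 0 with DESeq2 and 4 with limma voom.

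The remaining members did not pass in mTEC. Cd74 was at 11007, 9726 and 10459 CPM in Cre mTEC, below every control (log2 ratio -0.30, 95% interval -0.62 to 0.01, adjusted p = 0.37). It passed with DESeq2 (-0.37, adjusted p = 0.0275) and with limma voom (-0.31, adjusted p = 0.02), and its adjusted p ran from 0.02 to 0.702 over all alternatives. H2-Aa was at 3143, 2810 and 3040 CPM, also below every control (-0.23, -0.52 to 0.06), and so was Ciita, at 286.2, 286.2 and 323 CPM (-0.23, -0.50 to 0.04). In all, 5 of the 10 genes had no overlap, each lower in Cre, against 24.4% of all genes in either direction and 12.9% lower. H2-Ab1 (-0.05, -0.36 to 0.27), H2-Eb1 (-0.05, -0.33 to 0.23), H2-DMa (0.04, -0.22 to 0.30), H2-DMb1 (-0.07, -0.31 to 0.17) and Ifi30 (0.01, -0.24 to 0.26) overlapped.

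The difference of the 2 genotype effects, cTEC minus mTEC, was tested directly. It passed for H2-Oa alone among the members, against 4.01% of all genes (2.92% higher and 1.08% lower), with a value of 0.92 on the log2 scale (SE 0.22, 95% interval 0.46 to 1.38, adjusted p = 0.0203, edgeR). H2-Oa had a positive estimate in cTEC (0.44) and a negative one in mTEC (-0.48), neither of which passed by itself. The dendritic cell marker Zbtb46 passed in the same direction (0.87, adjusted p = 0.00852, edgeR), as 1 of the 19 dendritic cell and macrophage markers tested. The median difference over those 19 was -0.17, and the part of such cells in the H2-Oa values was not tested. The H2-Oa call was lost without library 3, 5, 7 or 9, with adjusted p from 0.053 to 0.0656. Ciita (0.65, SE 0.18, adjusted p = 0.0516) and H2-Ob (0.74, SE 0.21, adjusted p = 0.0561) stood just outside, and Ifi30 (0.53, SE 0.19, adjusted p = 0.129) farther. Ciita passed in 7 and H2-Ob in 9 of 19 alternatives. The median difference was 0.29 over the 10 genes and -0.04 over all genes.

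**Figure D4:**
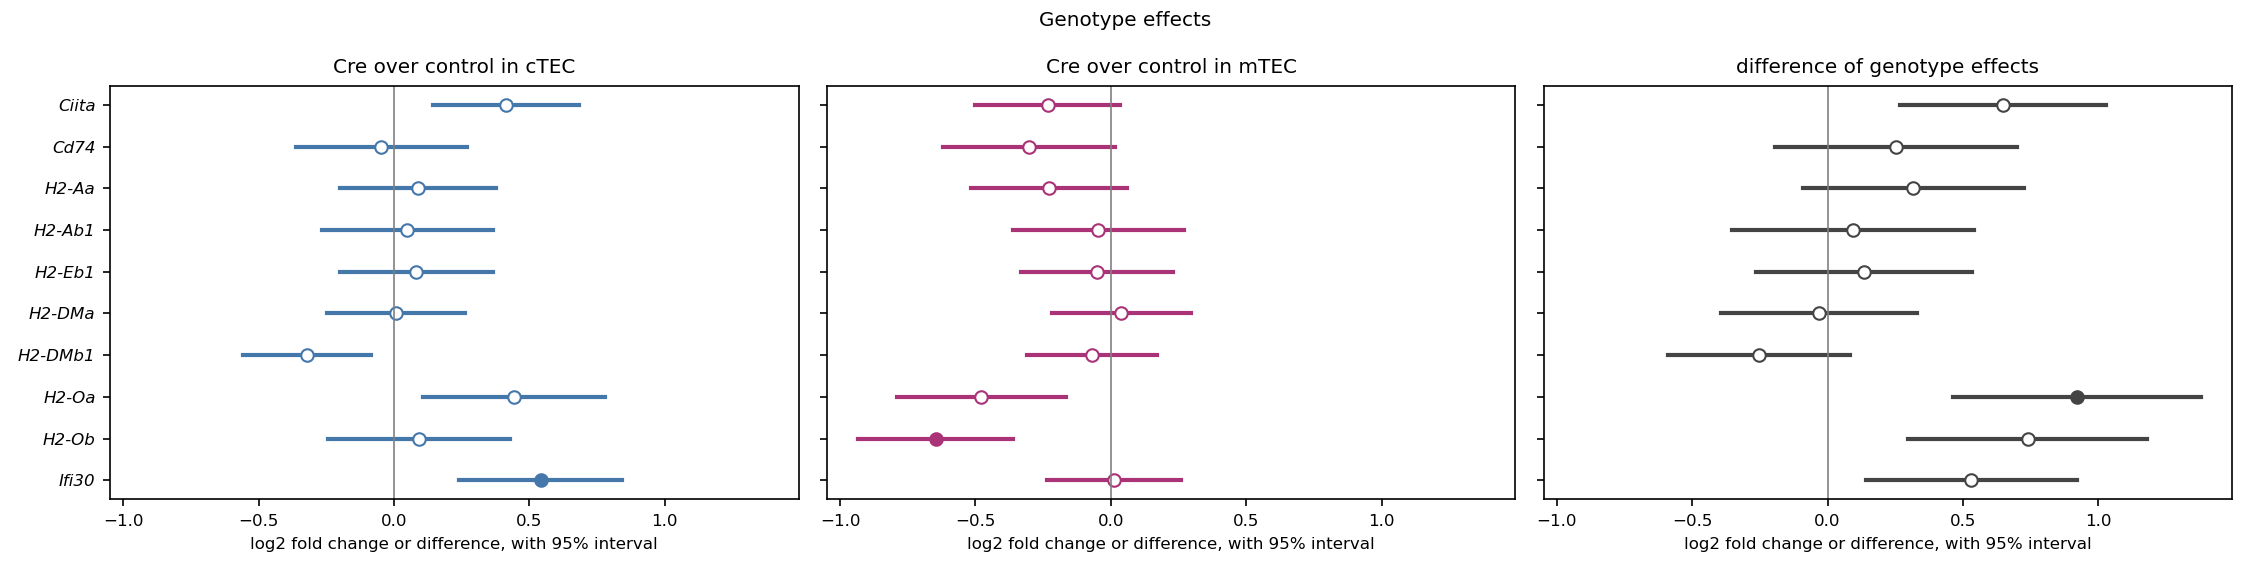
Log2 ratio of Cre over control in cTEC (left) and mTEC (middle), and the cTEC effect minus the mTEC effect (right), for each gene with 95% intervals from edgeR. Filled points have an adjusted p below 0.05: Ifi30 in cTEC, H2-Ob in mTEC and H2-Oa in the difference.

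Within groups the 10 genes varied together. After each group's mean of log2 CPM was subtracted, Pearson r over the 12 libraries was positive for all 45 pairs, with a median of 0.72. These points share libraries, depth and scaling factors, and the values are a description. No median was taken over pairs of all genes, so whether this is particular to the 10 genes was not tested. Among pairs of members the highest value was 0.97, for H2-Ab1 with H2-DMb1, and H2-Aa with H2-Eb1 reached 0.93. S100a16, which is not a member, had 0.98 with H2-Ab1. Ciita had 0.82 with Cd74 and 0.71 with H2-Oa. H2-Ob and Ifi30 were less tied to the others. H2-Ob had 0.26 with H2-DMa and 0.77 with its partner H2-Oa, and Ifi30 had 0.27 with Ciita and 0.72 with H2-Oa. By library, 11 was below its group's mean for all 10 genes (median deviation -0.25 on the log2 scale), as were libraries 7 (-0.13) and 5 (-0.09), and libraries 10 (0.13) and 8 (0.10) were above it for all 10. Across all 12 libraries without subtraction, H2-Oa and H2-Ob had r = 0.97, H2-DMa and H2-DMb1 0.95, and H2-DMa and H2-Oa -0.89, values set largely by cell type. Ciita had only 0.03 to 0.49 with Cd74 and the 3 classical chains on that measure.

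Among 12333 other genes with a mean of at least 5 CPM, the 5 with the highest r to Ciita across the 12 libraries included Snap91 (0.96), Rufy3, Rnf123 and Chd2 (0.91). For H2-Ab1 the 5 were Ppp1r11 (0.96), Napa, Atp5a1, Psma2 and Ercc1 (0.94). After subtraction of group means they were Tfip11 (0.95), Agpat3, Pcx, Stim2 and Vars for Ciita, and S100a16 (0.98), Psmb1, Eif6, Ndufv2 and D2Wsu81e for H2-Ab1. With Spearman's rho, 1 or 2 of each 5 stayed.

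The transcription factors and signalling genes that govern class II transcription were taken as a list of 22, of which 21 were tested. In control mice 11 were higher and 5 lower in mTEC, against 29.3% and 30% of all genes, with a median log2 ratio of 0.32 against -0.05 over all genes. Irf4, an interferon regulatory factor of lymphoid and myeloid cells, was at 2.43 ± 0.518 CPM in cTEC and 59.1 ± 9.72 CPM in mTEC (log2 ratio 4.61, SE 0.20, adjusted p = 7.0e-13, edgeR). Ifngr2 and Ifngr1, the chains of the interferon gamma receptor, were higher in mTEC by 1.54 and 0.78 on the log2 scale. Rfxap, a subunit of the RFX complex that binds the X box, was lower, with a log2 ratio of -1.01 (SE 0.12, adjusted p = 8.1e-07). Kat2b (-0.48) and Irf1 (-0.35) were also lower. These calls were lost without library 8 for Kat2b and without any 1 of the 6 libraries for Irf1, with adjusted p up to 0.127 and 0.368 over all alternatives. In Cre mice 5 were higher and 5 lower, against 25.1% and 24.5% of all genes, with a median of 0.06 against -0.02.

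In Cre cTEC, 3 of these 21 regulators rose and none fell, against 5.62% and 3.38% of all genes, with a median log2 ratio of 0.11 against -0.02. Irf8, another interferon regulatory factor, was at 106, 105 and 113 CPM in control cTEC, against 209, 127 and 187 CPM in Cre cTEC, without overlap (log2 ratio 0.70, SE 0.15, adjusted p = 0.00418, edgeR). Ep300, a histone acetyltransferase recruited by Ciita, was at 84.0 ± 8.13 and 125 ± 7.95 CPM (0.57, SE 0.10, adjusted p = 0.00116). Its relative Crebbp rose by 0.40 (SE 0.11, adjusted p = 0.0298), lost without library 7, 9, 10 or 12 with adjusted p up to 0.205. In mTEC 2.07% of all genes passed with edgeR. Of the 21 regulators 0 passed there with edgeR (4 at an unadjusted p below 0.05), 0 with DESeq2 and 3 with limma voom. The difference of genotype effects passed for Irf8 (1.07, SE 0.21, adjusted p = 0.00613) and Ep300 (0.61, SE 0.14, adjusted p = 0.0214, up to 0.0803 without library 1, 5, 7 or 9). In mTEC the Cre libraries (192 to 232 CPM) lay below controls (247 to 301 CPM) for Irf8. Zbtb46 also passed the difference test (0.87), while the median over the 19 dendritic cell and macrophage markers tested was -0.17. The part of such cells in the Irf8 values was not tested.

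Of 10 other genes of the class II region, 8 were tested. H2-Eb2, an I-E beta-like gene, was at 24.2 ± 2.53 CPM in control cTEC, 32.4 ± 1.92 in Cre cTEC, 108 ± 6.49 in control mTEC and 86.2 ± 9.58 in Cre mTEC. It was higher in mTEC of controls (log2 ratio 2.16, SE 0.12, adjusted p = 1.3e-11, edgeR) and of Cre mice (1.41, adjusted p = 5.7e-09). It rose in Cre cTEC (0.42, SE 0.12, adjusted p = 0.0395), a call lost without library 7, 9, 10 or 12 with adjusted p up to 0.169. Its difference of genotype effects was 0.75 (SE 0.16, adjusted p = 0.0132), and it was the single gene of this list to pass that test, against 4.01% of all genes. Btnl2, a butyrophilin-like gene, was also higher in mTEC (0.867 against 12.1 CPM in controls, log2 ratio 3.79, SE 0.36). Brd2, which overlaps H2-DMa in the annotation, had 0.29 (SE 0.12, adjusted p = 0.0462), the opposite sign to H2-DMa, and its call was lost without library 1, 2, 3, 7 or 9 with adjusted p up to 0.217.

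Of 17 endosomal proteases and protease inhibitors tested, which include enzymes that cut antigens and the invariant chain, 7 were higher and 8 lower in control mTEC. Over all genes 29.3% were higher and 30% lower, and the median log2 ratio was -0.19 over the list and -0.05 over all genes. Ctss, cathepsin S, was at 8.61, 10.2 and 12.5 CPM in control cTEC, against 101, 113 and 112 CPM in control mTEC (log2 ratio 3.37, SE 0.15, adjusted p = 7.0e-13, edgeR). Ctsh, an aminopeptidase, was at 16.5 ± 1.79 and 181 ± 20.2 CPM (3.45, SE 0.15), and Ctsc (2.00) and Ctsz (1.88) were higher as well. In the other direction, Prss16, the thymus-specific serine protease, was at 1926 ± 291 CPM in cTEC and 109.8 ± 2.72 CPM in mTEC (-4.13, SE 0.28, adjusted p = 2.6e-10). Ctsl, cathepsin L, was at 3711 ± 391 and 1184 ± 157 CPM (-1.65, SE 0.19), and Ctsf (-1.05) and Ctsd (-0.90) were lower too. Prss16 and Ctsl are also on the list of cTEC markers.

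In Cre cTEC 3 of these 17 genes rose and 2 fell, against 5.62% and 3.38% of all genes, with a median log2 ratio of -0.20 against -0.02. Cstb, the cathepsin inhibitor cystatin B, was at 318, 465 and 410.4 CPM in controls, against 949.6, 495 and 826 CPM with Cre (log2 ratio 0.93, SE 0.19, adjusted p = 0.00286). Prss16 was at 1766, 2262 and 1751 CPM in controls, against 5471, 1984 and 3671 CPM in Cre cTEC, where library 11 lay within the control range (0.94, SE 0.25, adjusted p = 0.0191). The Prss16 call was lost without library 7, 9 or 10, and without library 10 the value was 0.56 (adjusted p = 0.138). Cst6, cystatin M, passed (3.33, adjusted p = 0.0218) through library 11 alone, at 195 CPM against 6.69 and 7.43 CPM in libraries 10 and 12, and without library 11 the value was 0.06. Ctsb (-0.37, adjusted p = 0.0339) and Ctsd (-0.32, adjusted p = 0.0487) fell. Both calls were lost without library 7, 8, 9 or 10, and that of Ctsd also without library 12, with adjusted p up to 0.303 and 0.449 over all alternatives. In mTEC 2.07% of all genes passed with edgeR. Of the 17 genes 0 passed there with edgeR (4 at an unadjusted p below 0.05), 2 with DESeq2 and 4 with limma voom. In the difference of effects 0 passed with edgeR (7 unadjusted), against 4.01% of all genes, and 2 passed with DESeq2 and 2 with limma voom.

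**Figure D5:**
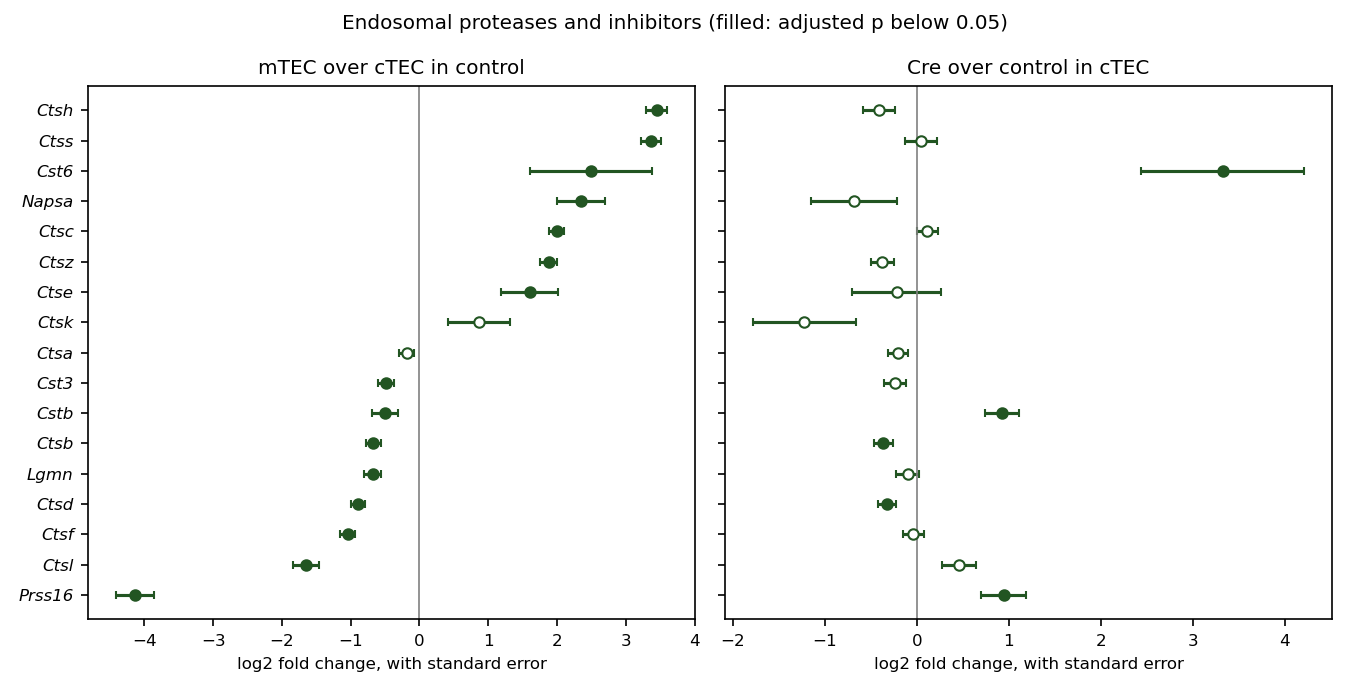
Log2 ratio with its standard error for 17 endosomal proteases and protease inhibitors, for mTEC over cTEC in control mice (left) and Cre over control in cTEC (right), from edgeR. Filled points have an adjusted p below 0.05. Ctsh and Ctss lie far to the right and Prss16 and Ctsl to the left in the cell type comparison, and Cst6 in the right panel rests on 1 library.

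The 20 genes of class II trafficking and turnover had 2 higher and 8 lower in control mTEC, against 29.3% and 30% of all genes, so that fewer passed than the 59.2% of all genes. The median log2 ratio was -0.28, against -0.05 over all genes. Lamp2 (-1.46), Cd81 (-1.31), Rab7 (-0.73) and Lamp1 (-0.69), proteins of late endosomes, lysosomes or tetraspanin domains, were lower, and Cd82, a tetraspanin, was higher (1.69, SE 0.15, adjusted p = 1.0e-08). In Cre cTEC, Cd81 fell from 321 ± 6.87 to 209 ± 21.1 CPM (-0.62, SE 0.11, adjusted p = 0.00108, edgeR) and Tfeb, a regulator of lysosomal genes, fell by 0.58 on the log2 scale (SE 0.13, adjusted p = 0.00596). Of 20 macroautophagy genes, which bring cytoplasmic antigens to class II in thymic epithelium, 9 were lower in control mTEC and 1, Map1lc3a, was higher (1.00, SE 0.13), again fewer than the 59.2% of all genes, with a median of -0.24. Map1lc3b (-1.06), Atg3 (-0.96) and Atg10 (-0.87) were among the lower genes. In Cre cTEC 1 of the 20 rose and none fell, against 5.62% and 3.38% of all genes. The gene that rose was Ulk1 (0.35, SE 0.11, adjusted p = 0.0415), with adjusted p up to 0.186 without library 8, 9 or 10 or under other settings. In mTEC 2.07% of all genes passed with edgeR. Of either list 0 genes passed there with edgeR (2 trafficking and 0 macroautophagy genes at an unadjusted p below 0.05), with DESeq2 or with limma voom. In the difference of effects 0 passed with edgeR (2 and 1 unadjusted), against 4.01% of all genes, and DESeq2 called 1 and limma voom 3 of the trafficking genes.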

How the data were processed

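One table of raw counts per gene symbol was deposited by the authors. Per the submitters' processing notes the tools were STAR, HTSeq and edgeR, on build mm9. Versions, annotation, strand setting and handling of multi-mapping reads: not given in the sources used here. Per the labels' protocols the kit was SMARTer low-input v.4, which does not mark strand. Groups came from the labels. Genes were filtered by group with filterByExpr and tested with edgeR 4.0.16 (R 4.3.3): TMM scaling, two-sided quasi-likelihood tests, 4 groups in 1 fit of 12 libraries, Benjamini-Hochberg adjustment over 17268 genes, threshold 0.05, for 5 comparisons, some of which share libraries. The code was tested on simulated data. In CPM, 1 count was 0.0896 to 0.193. Transcript lengths, overlapping genes and shared windows came from GENCODE M21 on GRCm38. Correlations used log2 CPM with a prior count of 2. Members and gene lists were chosen with earlier results of these data known. All members were named, and of each pathway list genes that passed, at most 4 per comparison and direction by smallest p. Spi1 and Sppl2a are not analysed here, and some genes that these rules select are not reported here. Tried instead were size factors from DESeq2 1.42.0, its own test, voom with quality weights from limma 3.58.1, robust estimation, no filter, a filter of 5 CPM in 3 libraries, fits of just the 6 libraries in a comparison, and omission of each library. Summing H2-DMb1 and H2-DMb2 was chosen after seeing the data.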

Additional observations from a re-analysis of the deposited data

Results flagged for a closer look

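The genotype effect on H2-Oa differed between the cell types by a test of the difference itself: the effect in cTEC minus that in mTEC was 0.92 on the log2 scale (SE 0.22, adjusted p = 0.0203, edgeR's quasi-likelihood test). H2-Oa was at 40.6 to 54.9 CPM in control cTEC and 46.7 to 75.8 CPM in Cre cTEC, and at 166 to 185 CPM in control mTEC and 108 to 148 CPM in Cre mTEC (3 libraries each). Over the 19 alternatives the value lay between 0.78 and 1.12, and the adjusted p was above the threshold in 4 of them (0.053 to 0.0656, without library 3, 5, 7 or 9).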

How the results depend on the processing

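The count of members passing was 7 in each comparison of cell types, and it stayed between 6 and 9 under every alternative run. The genotype counts rest on less. In cTEC, where 1 member passed, the count was 2 with DESeq2's size factors and the robust fit, 3 with DESeq2, limma voom, no filter and the filter of 5 CPM in 3 libraries, 0 with only the 6 libraries compared, and 0 to 3 with 1 library left out. In mTEC (1 member) it was 3 with DESeq2 and limma voom, 2 with no filter and with only the 6 libraries compared, and 0 to 1 with 1 library left out. In the difference of effects (1 member) it was 3 with DESeq2's size factors, the robust fit, no filter and the filter of 5 CPM, 4 with DESeq2, 5 with limma voom, and 0 to 4 with 1 library left out. None of the log2 ratios that changed sign had passed. With DESeq2's size factors these were H2-DMa in mTEC (-0.0023), Ifi30 in mTEC (-0.030) and H2-DMa in the difference (0.016), and with DESeq2 the same quantities were -0.027, -0.054 and 0.063. Limma voom gave -0.020 for Ifi30 in mTEC and 0.088 for H2-DMa in the difference. No filter gave 0.0036 for Cd74 in cTEC, -0.022 for Ifi30 in mTEC, 0.050 for H2-DMa in the difference, and, for mTEC over cTEC, 0.0070 for H2-Ab1 in controls and 0.0043 for Cd74 in Cre. The filter of 5 CPM gave -0.0018 for H2-DMa in cTEC. The beta chain sum gave 0.043 in cTEC and 0.19 in the difference, where H2-DMb1 had -0.32 and -0.25. With 1 library left out, the genotype effect in cTEC ran from -0.15 to 0.060 for Cd74, from -0.045 to 0.18 for H2-Ab1, from -0.081 to 0.12 for H2-DMa and from -0.027 to 0.24 for H2-Ob. In mTEC it ran from -0.073 to 0.080 for H2-DMa, from -0.051 to 0.061 for Ifi30 and from -0.18 to 0.011 for H2-Eb1. The difference of effects ran from -0.12 to 0.12 for H2-DMa, and mTEC over cTEC in Cre from -0.17 to 0.022 for Cd74. The cause of these changes was not tested. No paired analysis was possible because the labels give the groups no shared replicate number. Depth did not limit detection of the members, whose lowest count was 82.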
